A study of Mus musculus with 12 samples.

Results

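The genes described here are 6 members of the S100 family (S100a4, S100a6, S100a8, S100a9, S100a10 and S100a11) and 4 annexins (Anxa1, Anxa2, Anxa3 and Anxa5), chosen by name as genes linked to tissue injury. That choice was made with earlier results of these data known, so contrasts of these genes with all genes are descriptive. The members are 10 of 54532 genes counted in mouse liver, of which 28715 were detected in 1 or more of 12 libraries. The livers came from male mice carrying floxed PPARγ alleles, all fed a fast-food diet (FFD) rich in saturated fat, cholesterol and sucrose, with sugar in the drinking water, for 2 or 5 months. At 8 weeks of age, before the diet, PPARγ-KO mice had received an AAV8 vector that expresses Cre recombinase from the TBG promoter, which is active in hepatocytes, and control littermates (wild-type) had received AAV8 expressing eGFP from the same promoter. Each genotype had 3 libraries at each time, and no group without the diet or without a vector is compared here. Cre was limited to hepatocytes, so other liver cells kept the floxed alleles intact, while the RNA came from whole liver. A change in a transcript within a cell and a change in the number of cells that carry it cannot be told apart in such libraries.

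S100 proteins are small calcium-binding proteins that act inside cells on the cytoskeleton and on membrane partners, and some act outside cells as danger signals. S100A8 and S100A9 form calprotectin, a product of neutrophils and monocytes that is read through the receptors TLR4 and RAGE. Annexins bind negatively charged phospholipids when calcium rises, and serve in membrane repair, vesicle traffic and the clearance of dying cells. The families meet in complexes, of which S100A10 with annexin A2 and S100A11 with annexin A1 are the best known, and the former binds plasminogen and its activators at the cell surface.

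Libraries held 16367775 to 27452284 counts. Pparg, the targeted gene, was not lower in libraries labelled PPARγ-KO: it averaged 39.3 ± 1.92 against 56.4 ± 8.85 normalized CPM (counts scaled to library size) at 2 months and 38.5 ± 2.55 against 84.9 ± 9.06 at 5 months (wild-type first, SD, n = 3 each). Gene counts do not separate the deleted exons from the rest, so directions below follow the library labels. Wild-type replicate 1 at 2 months stood apart from its group for several of these genes, as shown beside their values, and for cell markers: it had the highest sum of hepatocyte markers of its group (76740 CPM, the others up to 66510) and the lowest of stellate cell markers (632.4, the others from 791.7). Nothing in the labels states that the libraries were separate animals prepared together, so p-values measure the spread between libraries, and diet time and a possible preparation batch cannot be told apart.

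The 10 genes differed widely in level. Per kilobase of gene length, Anxa5 and S100a10 were the most abundant in each group, with 135.0 ± 31.9 and 115.7 ± 25.4 CPM per kb in wild-type libraries at 2 months, where their ranges overlapped. S100a11 (38.5 ± 17.4) and Anxa2 (21.3 ± 6.65) followed, also overlapping. Anxa3, Anxa1, S100a9, S100a6 and S100a8 lay between 2.51 and 1.08 CPM per kb, and S100a4 had no count. In wild-type libraries at 5 months S100a10 (237.5 ± 36.5) and Anxa5 (212.0 ± 7.32) again overlapped, ahead of S100a11 (83.3 ± 13.1) and Anxa2 (52.0 ± 4.57), which did not overlap each other or their neighbours. The same 4 genes led in PPARγ-KO libraries at both times, in the order S100a10, Anxa5, S100a11 and Anxa2 with no overlap between neighbours. On the CPM scale without length, Anxa5, S100a10 and Anxa2 made up 91.6% to 93.7% of the summed level of the 10 genes, so that sum mostly describes these 3.

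**Figure D1:**
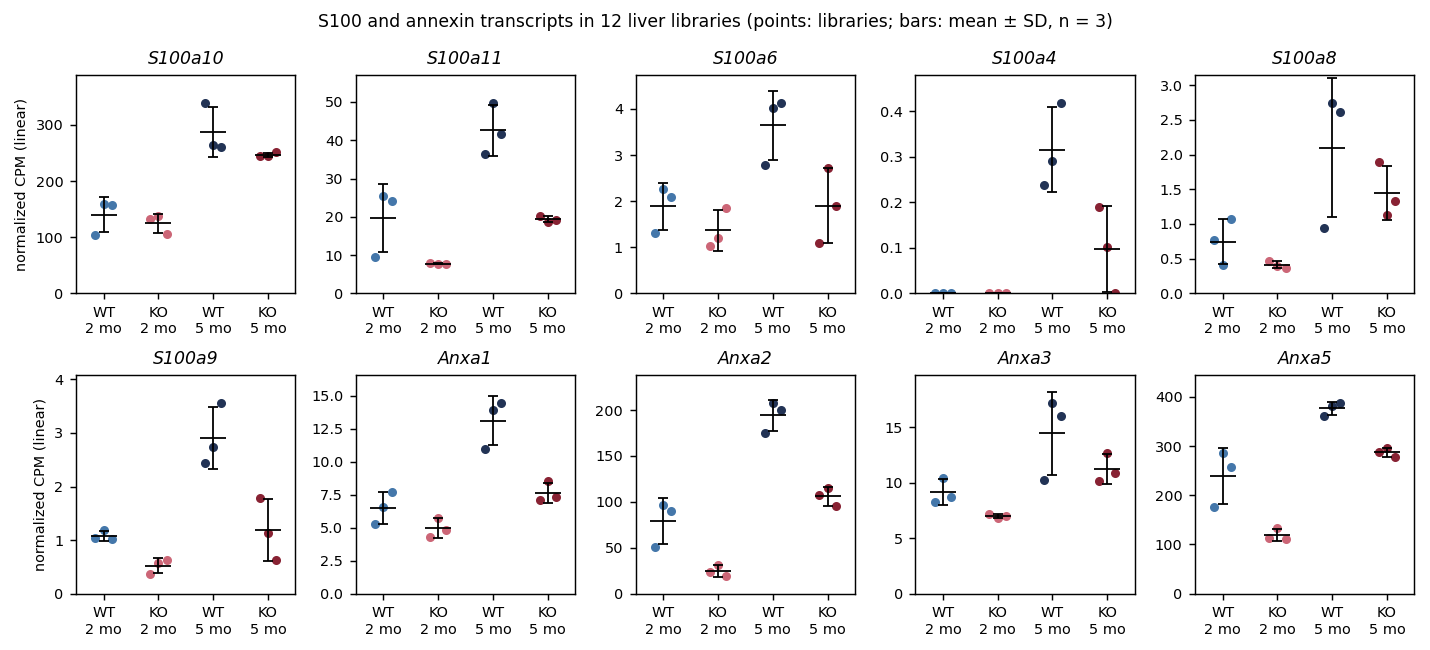
Normalized CPM on a linear axis from 0 for each gene in 4 groups; points are libraries, and bars give the mean ± SD (n = 3). S100a9, S100a11, Anxa2 and Anxa5 lay lower in all 3 PPARγ-KO libraries than in all 3 wild-type libraries at both times. Wild-type replicate 1 at 2 months was the lowest of its group for S100a11, Anxa2, Anxa5 and S100a10.

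Genes are placed here as in the count files, on mm10. S100a4, S100a6, S100a8 and S100a9 lie in 1 block of chromosome 3 (90603771 to 90695721), the first 3 on the plus strand and S100a9 on the minus strand. S100a11 (93520488 to 93526287) and S100a10 (93555080 to 93564643) lie 2824766 bases further along. Anxa5 is on chromosome 3 (36448923 to 36475894), Anxa2 on 9 (69453620 to 69491795), Anxa3 on 5 (96793339 to 96845966) and Anxa1 on 19 (20373428 to 20390944). Of the exonic bases of S100a4, 51.7% are shared with Gm42674 on the same strand, a gene with 0 counts, so the level of S100a4 is uncertain.

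RefSeq's promoter table (GRCm38.p6, the mm10 build) held 8 of the 10 genes, all but S100a10 and Anxa3. The sequences below are shown for Anxa5, Anxa2 and S100a11, the 3 genes with the smallest edgeR adjusted p between genotypes at 2 months, all of which were called at 5 months. Each is the part of the 250 bases before the RefSeq start that also lies outside the gene as the files place it, 5′ to 3′ on the gene's own strand, at chr3:93520246-93520487 (plus), chr9:69453433-69453619 (plus) and chr3:36475895-36476137 (minus). Capitals mark TGANTCA, the AP-1 motif, which reads the same on both strands.
S100a11: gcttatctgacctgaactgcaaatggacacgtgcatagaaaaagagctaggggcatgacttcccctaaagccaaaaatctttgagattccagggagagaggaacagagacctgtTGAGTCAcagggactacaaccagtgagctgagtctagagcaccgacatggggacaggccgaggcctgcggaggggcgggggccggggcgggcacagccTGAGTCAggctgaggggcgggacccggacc
Anxa2: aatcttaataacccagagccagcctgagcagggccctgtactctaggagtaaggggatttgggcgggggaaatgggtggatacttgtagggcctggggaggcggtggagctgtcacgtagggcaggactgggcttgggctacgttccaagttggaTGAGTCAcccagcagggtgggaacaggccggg
Anxa5: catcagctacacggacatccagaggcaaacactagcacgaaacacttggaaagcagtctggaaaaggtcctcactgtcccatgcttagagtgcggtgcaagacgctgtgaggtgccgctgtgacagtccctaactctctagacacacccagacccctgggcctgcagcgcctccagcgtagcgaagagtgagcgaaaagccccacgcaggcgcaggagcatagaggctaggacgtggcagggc
In the full 250 bases, S100a11 held the motif at 136 and 38 bases before the start and Anxa2 at 95 bases before it, where 6.75% of 32851 promoters held it at least once, and the other 6 promoters searched had none. The nuclear receptor half-site AGGTCA was in S100a4 and S100a11 (14% of promoters), and its direct repeat with a single base between the copies (the DR1 element that PPAR-RXR dimers favour) was in none of the 8 (0.0335% of promoters). The NF-kappa B consensus was in none of the 8 (0.14%). These are matches of letters on both strands, not sites.

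After 2 months of diet, the 8 genes with enough counts for a test all had lower fitted values in PPARγ-KO than in wild-type libraries, and 1 of them, Anxa5, fell past the threshold (edgeR quasi-likelihood test, adjusted p under 0.05 over all genes). Among all 14573 genes tested, 3.56% were called and 1.78% were called lower. The median log2 fold change of the 8 was -0.73, where that of all genes tested was -0.0048. The 3 libraries of each genotype did not overlap for 5 of the 8 (S100a9, S100a11, Anxa2, Anxa3 and Anxa5), where 12% of all genes were lower without overlap.

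Anxa5, which binds exposed phosphatidylserine and seals membrane lesions, had 176.5, 285.9 and 257.1 normalized CPM in wild-type libraries and 112.8, 133.0 and 110.6 in PPARγ-KO libraries at 2 months. Every PPARγ-KO library was below every wild-type one, although wild-type replicate 1 was much nearer to them than the other two. Its log2 fold change was -1.01 (SE 0.179, edgeR adjusted p = 0.0315). This call depended on 5 of the 6 libraries: the edgeR adjusted p was 5.04e-05 without wild-type replicate 1 and 0.0615 to 0.115 without any other 1 library, with values from -0.87 to -1.19 over those 6.

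Anxa2, the membrane partner of S100A10 and a surface receptor for plasminogen activation, had the lowest fitted value of the 8. It had 50.9, 96.6 and 90.5 CPM in wild-type and 23.4, 31.7 and 19.0 in PPARγ-KO libraries, without overlap. The log2 fold change of -1.69 (SE 0.328) did not pass (edgeR adjusted p = 0.0697). S100a11, which joins annexin A1 and A2 at membranes, had 9.45, 25.4 and 24.2 CPM against 7.87, 7.64 and 7.78, so wild-type replicate 1 lay close to the PPARγ-KO libraries and far from its own group. Its log2 fold change was -1.34 (SE 0.383, edgeR adjusted p = 0.143). Without wild-type replicate 1 both passed, with edgeR adjusted p = 0.00987 for Anxa2 and 2.05e-05 for S100a11, and they also passed by DESeq2 (adjusted p = 7.7e-11 and 2.14e-04).

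S100a9 had 19, 23 and 20 counts in wild-type libraries against 7, 10 and 17 in PPARγ-KO libraries, or 1.08 ± 0.0921 and 0.522 ± 0.142 CPM (SD, n = 3 each; log2 fold change -1.02, edgeR adjusted p = 0.163). Its partner S100a8 had 14, 8 and 21 counts against 9, 7 and 10, too few for a test. Anxa3, an annexin abundant in neutrophils, had a log2 fold change of -0.38 (edgeR adjusted p = 0.182), Anxa1, the ligand of formyl peptide receptors that limits inflammation, -0.40 (0.303), S100a6, or calcyclin, a protein linked to proliferation, -0.45 (0.517) and S100a10 -0.17 (0.676). S100a10 stood out from Anxa2 in the values themselves, with 104.8, 159.3 and 156.7 CPM in wild-type and 131.9, 137.3 and 105.7 in PPARγ-KO libraries, which overlapped.

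After 5 months, 6 of the 9 genes tested fell in PPARγ-KO livers (S100a6, S100a9, S100a11, Anxa1, Anxa2 and Anxa5) and none rose. All 9 fitted values were below 0, with a median of -0.77 (all genes -0.0058). Of 14138 genes tested, 18.4% were called and 9.51% were called lower. The 6 and S100a10 did not overlap between genotypes, where 19% of all genes were lower without overlap.

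S100a11 had 36.5, 49.7 and 41.5 CPM in wild-type and 20.3, 18.6 and 19.3 in PPARγ-KO libraries. The PPARγ-KO libraries were tightly grouped at less than the lowest wild-type value. It fell by 1.12 log2 units (SE 0.105, edgeR adjusted p = 2.35e-05). Anxa2 had 174.9, 207.3 and 200.2 CPM against 107.5, 114.8 and 95.3, and fell by 0.86 (SE 0.0842, edgeR adjusted p = 2.21e-05). Anxa1 had 11.0, 13.9 and 14.4 CPM against 7.08, 8.52 and 7.33, and fell by 0.77 (SE 0.137, edgeR adjusted p = 0.00172). These 3 calls were made in 13 of 13 alternative settings, left-out libraries included.

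Anxa5 had 362.0, 381.0 and 386.9 CPM in wild-type and 287.5, 296.6 and 278.2 in PPARγ-KO libraries at 5 months. The ranges were narrow and apart, and the fall was smaller than those above, at 0.38 log2 units (SE 0.0646, edgeR adjusted p = 0.00128). It was lost in 1 of 13 alternatives, the fit of all 12 libraries together (edgeR adjusted p = 0.0814).

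S100a9 had 41, 47 and 68 counts against 38, 22 and 10, or 2.91 ± 0.579 and 1.19 ± 0.584 CPM, and fell by 1.25 log2 units (SE 0.328, edgeR adjusted p = 0.018). S100a6 had 2.79, 4.03 and 4.13 CPM against 1.09, 2.72 and 1.89, and fell by 0.94 (SE 0.303, edgeR adjusted p = 0.0484). The PPARγ-KO libraries were spread widely in both, from 0.632 to 1.80 CPM in S100a9 and from 1.09 to 2.72 CPM in S100a6. Both calls depended on single libraries. That of S100a6 was lost without wild-type replicate 2 or 3 or PPARγ-KO replicate 1 or 3 (edgeR adjusted p = 0.13 to 0.167) and in the fit of all 12 libraries (0.0648), and that of S100a9 without wild-type replicate 3 or PPARγ-KO replicate 2 or 3 (0.0535 to 0.0962).

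The other 3 tested genes did not pass at 5 months. S100a10 had 338.9, 264.3 and 260.3 CPM in wild-type and 244.2, 244.6 and 251.3 in PPARγ-KO libraries (log2 fold change -0.21, edgeR adjusted p = 0.137), and passed with library size alone (0.03) and without a filter on low counts (0.0402). Anxa3 was at 14.5 ± 3.74 against 11.2 ± 1.35 CPM (-0.36, edgeR adjusted p = 0.226), and S100a8 at 2.10 ± 1.00 against 1.45 ± 0.395 (-0.52, edgeR adjusted p = 0.39). Without wild-type replicate 1, which was lowest of its group for both, Anxa3 (edgeR adjusted p = 0.00524) and S100a8 (0.0492) passed, and Anxa3 also passed without a filter on low counts (0.0372). S100a4, a protein of fibroblasts and macrophages, had 4, 5 and 8 counts in wild-type and 4, 2 and 0 in PPARγ-KO libraries, too few for a test.

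**Figure D2:**
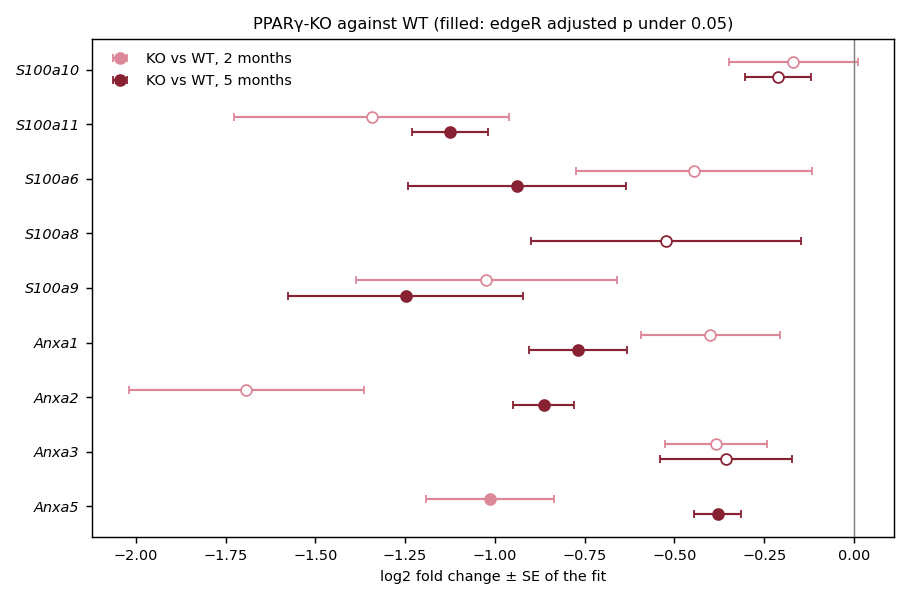
Log2 fold change of PPARγ-KO against wild-type libraries on the x axis for the genes tested, with the SE of the fit as bars, at 2 months (pale) and 5 months (dark); filled points have an edgeR adjusted p under 0.05. All values lie below 0, 1 of 8 is filled at 2 months and 6 of 9 at 5 months, and the SE of Anxa2 and S100a11 is wider at 2 months.

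Whether the genotype difference itself changed with time was tested in 1 fit of all 12 libraries. edgeR called 0 of 9 genes, with 2 at an unadjusted p under 0.05, where 1.57% of 15127 genes were called, and DESeq2 called 1, Anxa5 (adjusted p = 0.0399). The difference, 5 minus 2 months, was 0.82 for Anxa2 (SE 0.352, edgeR adjusted p = 0.322) and 0.62 for Anxa5 (SE 0.193, edgeR adjusted p = 0.139) on the log2 scale, in the direction of a smaller fall at 5 months. Without wild-type replicate 1 at 2 months both passed (edgeR adjusted p = 0.0432 for Anxa2 and 0.001 for Anxa5). The greater number of calls at 5 months therefore does not show greater falls.

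Between 2 and 5 months of diet, the genes rose in both genotypes. In wild-type libraries 8 of 9 tested genes rose, with a median log2 fold change of 1.04 (all genes -0.0128), where 46.4% of 14491 genes were called and 23.8% were called higher. In PPARγ-KO libraries 8 of 9 rose as well, with a median of 1.18 (all genes -0.0111), where 44.9% of 14478 genes were called and 22.7% were called higher. In each genotype 7 genes did not overlap between the times, where 28.7% and 28.2% of all genes were higher without overlap.

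In wild-type libraries S100a8 and S100a9 rose by 1.49 (edgeR adjusted p = 0.0232) and 1.43 (0.00161) on the log2 scale, Anxa2 by 1.29 (0.00743), S100a10 by 1.04 (0.00216) and Anxa1 by 1.01 (7.33e-04). S100a6 rose by 0.95 (0.0153), Anxa3 by 0.66 (0.0179) and Anxa5 by 0.65 (0.00858). S100a11 had a value of 1.11 and did not pass (SE 0.399, edgeR adjusted p = 0.0786). Its wild-type libraries at 2 months spread from 9.45 to 25.4 CPM, and it passed without replicate 1 at 2 months (edgeR adjusted p = 3.89e-04) and by DESeq2 (adjusted p = 0.0277). The calls of 3 genes depended on single libraries. S100a8 was lost without replicate 2 at 2 months or replicate 2 or 3 at 5 months (edgeR adjusted p = 0.0749 to 0.0884), Anxa3 without replicate 3 at 2 months or 2 or 3 at 5 months (0.0616 to 0.0708) and with scaling by library size alone (0.0527), and S100a6 without replicate 2 or 3 at 5 months (0.0572 and 0.0654).

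In PPARγ-KO libraries Anxa2 rose the most, from 24.7 ± 6.47 to 105.8 ± 9.84 CPM, by 2.11 log2 units (edgeR adjusted p = 4.57e-04). S100a8 rose by 1.81 (0.00201), S100a11 by 1.31 (2.53e-06), Anxa5 by 1.27 (1.08e-06) and S100a9 by 1.18 (0.0445). S100a10 rose by 0.98 (2.11e-05), Anxa3 by 0.68 (0.00132) and Anxa1 by 0.63 (0.00829). S100a6 had a value of 0.44 and did not pass (edgeR adjusted p = 0.353). The call of S100a9 was lost without any 1 of the libraries at 2 months or without replicate 1 or 2 at 5 months (edgeR adjusted p = 0.0604 to 0.233), with scaling by library size alone (0.0529), with the replicate number as a block (0.107) and by DESeq2 (adjusted p = 0.0712). The PPARγ-KO libraries at 5 months held S100a11 at 19.4 ± 0.849 CPM and Anxa2 at 105.8 ± 9.84, against 19.7 ± 8.89 and 79.4 ± 24.8 in wild-type libraries at 2 months.

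S100a4 had 0 counts in all 6 libraries at 2 months. Its 17 counts in wild-type libraries at 5 months make it at least 6.12-fold higher than at 2 months, with 3 counts over the group as the floor set for a count of 0, and this bound covers counting error only. In PPARγ-KO libraries at 5 months it had 6 counts in all, and 1 of the 3 libraries was at 0 as at 2 months, so no fold is given there.

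**Figure D3:**
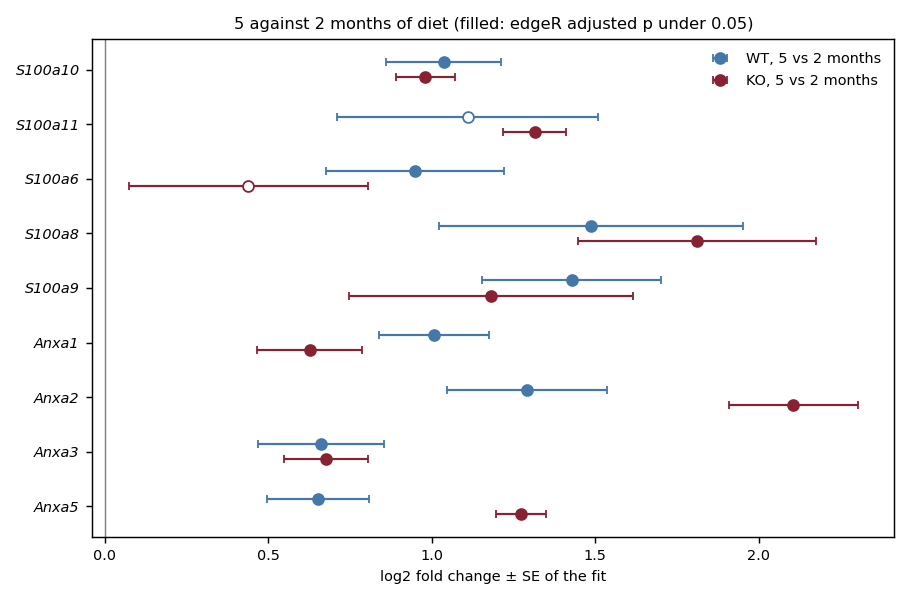
Log2 fold change of 5 against 2 months of diet on the x axis, with the SE of the fit as bars, in wild-type (blue) and PPARγ-KO (red) libraries; filled points have an edgeR adjusted p under 0.05. All values lie above 0, and the open points are S100a11 in wild-type and S100a6 in PPARγ-KO libraries.

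The ratio of the partner transcripts S100a10 and Anxa2 was compared within libraries. Per base of gene length, S100a10 exceeded Anxa2 by 6.34, 5.08 and 5.33 times in wild-type libraries at 2 months and by 17.4, 13.3 and 17.1 times in PPARγ-KO libraries. At 5 months the ratios were 5.97, 3.93 and 4.00 against 7.00, 6.56 and 8.12. The genotypes did not overlap at either time, and both differences reached the smallest p that 3 libraries against 3 allow (two-sided exact permutation test, p = 0.1; adjusted p = 0.24 over 12 comparisons of ratios). In wild-type libraries the ratio overlapped between the times (exact permutation p = 0.3), and in PPARγ-KO libraries it was lower at 5 months without overlap (exact permutation p = 0.1).

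The calprotectin pair S100a8 to S100a9 had ratios from 0.262 to 1.58 over all libraries and overlapped in each of the 4 comparisons. The ratio of S100a11 to Anxa1 overlapped between genotypes at 2 months (9.10 to 19.8 in wild-type, 6.77 to 9.35 in PPARγ-KO libraries). At 5 months it was 17.0, 18.2 and 14.7 against 14.6, 11.1 and 13.4, without overlap (exact permutation p = 0.1).

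**Figure D4:**
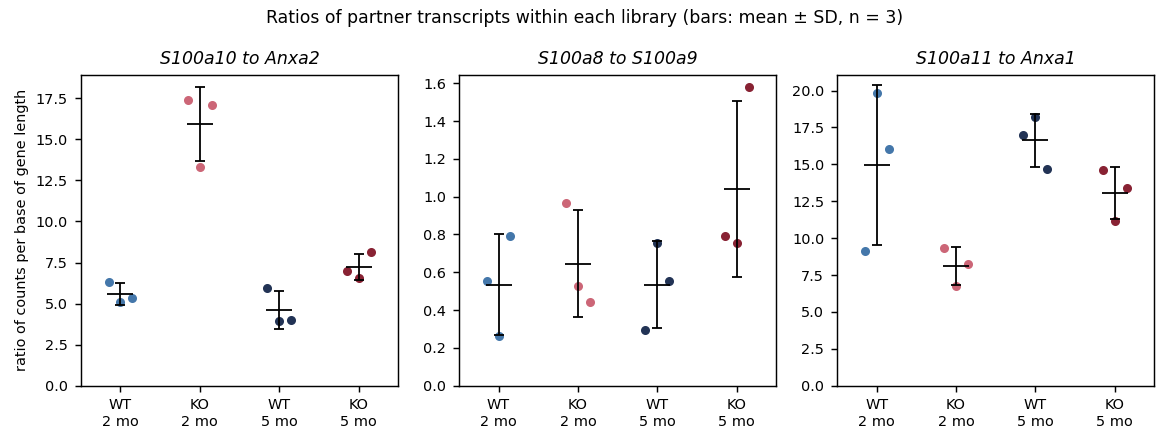
Ratio of counts per base of gene length within each library for 3 pairs of partner transcripts, on linear axes from 0; points are libraries, and bars give the mean ± SD (n = 3). The S100a10 to Anxa2 ratio is highest in PPARγ-KO libraries at 2 months (13.3 to 17.4), and the S100a8 to S100a9 ratio overlaps in every comparison.

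Most other members of both families were not called between genotypes, where 3.56% of all genes tested were called at 2 months and 18.4% at 5 months. With so few genes, these calls do not set them apart from all genes. Of 10 further S100 genes, 3 were tested at 2 months and 4 at 5 months between genotypes, and edgeR called 0 at either time, with 0 at an unadjusted p under 0.05 and 0 called by DESeq2. S100a1, S100a13 and S100a16 rose with time in wild-type libraries by 0.75, 0.94 and 0.62 log2 units (edgeR adjusted p = 2.6e-05, 6.76e-04 and 0.00127). In PPARγ-KO libraries they rose by 0.56, 0.77 and 0.46 (edgeR adjusted p = 6.38e-05, 1.18e-04 and 0.00197).

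Of 8 further annexins, 0 of 6 tested were called between genotypes by edgeR at 2 months, with 2 at an unadjusted p under 0.05 and 0 called by DESeq2. At 5 months Anxa4 fell by 0.34 (SE 0.071, edgeR adjusted p = 0.00514) and Anxa11 rose by 0.36 (SE 0.112, edgeR adjusted p = 0.0411), of 7 tested. With time, Anxa11 fell in both genotypes, by 0.78 in wild-type and 0.59 in PPARγ-KO libraries (edgeR adjusted p = 2.46e-04 and 6.24e-04), while Anxa4 rose by 0.47 and 0.40 (0.00128 and 0.00102).

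Of 12 receptors and partners of these proteins, 11 were tested between genotypes. At 2 months edgeR called 0, with 2 at an unadjusted p under 0.05 and 0 called by DESeq2, and 5 fell at 5 months. Fpr1 and Fpr2, the formyl peptide receptors that bind annexin A1, fell by 1.36 and 1.76 log2 units (edgeR adjusted p = 0.00151 and 0.0042). Tlr4, a receptor for calprotectin, fell by 0.95 (0.00166), Plau, the urokinase plasminogen activator, by 1.13 (0.00541), and Dysf, a membrane repair protein, by 0.56 (0.0418). In wild-type libraries 5 of 11 rose with time, among them Fpr1 by 1.17 (0.00126) and Fpr2 by 1.12 (0.0208). In PPARγ-KO libraries 4 rose, including Plat and Plaur by 0.93 and 0.92 (0.0247 and 0.0197), and Dysf fell by 0.71 (0.00366).

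The genes most like each member over the 12 libraries were found among 13164 other genes by the root mean square difference of log2 CPM centred on each gene's mean, as a description. The points share libraries and diet time. Anxa1 lay nearest to Cd68, a macrophage lysosomal protein, at 0.109, where the spread of Anxa1 itself was 0.535, followed by Laptm5 (0.128) and Serpinb6a (0.14). Anxa2 lay nearest to Uap1l1 (0.165) and Lgals1 (0.217), which encodes galectin-1, and S100a11 to Clec7a (0.233), the beta-glucan receptor of myeloid cells. S100a9 lay nearest to Pstpip1 (0.26), S100a6 to Hmox1 (0.224), the haem oxygenase induced by stress, and S100a8 to Mmp27 (0.351). Anxa5 lay nearest to Smox (0.131), Anxa3 to Tnfrsf21 (0.122) and S100a10 to the pseudogene Dnajc19-ps (0.12), whose reads may be shared with its parent gene.

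Markers of cells that carry these transcripts moved between the groups too. Of 12 monocyte and macrophage markers, 3 fell at 2 months and 8 at 5 months in PPARγ-KO libraries, and their summed level ran from 744.1 to 1005 CPM in wild-type and 411.1 to 518.9 in PPARγ-KO libraries at 5 months. At 2 months these sums overlapped, at 271.0 to 355.6 against 248.0 to 307.3. Those of the S100 and annexin genes did not (358.4 to 588.1 against 257.7 to 324.3). The macrophage sums are made up mostly of abundant markers such as Lyz2 and Csf1r. The 3 markers called at 2 months were less abundant: Trem2 fell by 1.595 log2 units (edgeR adjusted p = 0.0237), Ccr2 by 1.18 (0.0107) and Cx3cr1 by 1.147 (0.0401). Of the 12 fitted values at 2 months, 10 lay below 0 and 2 above. In wild-type libraries 10 of the 12 markers rose with time, and in PPARγ-KO libraries 8 rose and 1 fell. Cd68 fell by 0.85 at 5 months (edgeR adjusted p = 3.21e-04) and Lyz2 by 1.13 (0.035).

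Of 5 Kupffer cell markers, 1 rose at 2 months and 4 fell at 5 months, with sums of 870.6 to 922.1 CPM in wild-type and 377.4 to 507.4 in PPARγ-KO libraries at 5 months. At 2 months the sums overlapped, but 4 of 5 fitted values lay above 0. Clec4f, Vsig4 and Timd4 were then higher in PPARγ-KO libraries without overlap. At 5 months all 5 values lay below 0, and Clec4f, a marker of resident Kupffer cells, fell by 0.79 (edgeR adjusted p = 1.4e-04). Of 10 stellate cell and fibroblast markers, 1 fell at 2 months and 6 at 5 months. Their sums were lower in PPARγ-KO libraries without overlap at both times, at 632.4 to 825.3 against 470.9 to 495.8 CPM at 2 months and 710.1 to 894.3 against 548.1 to 623.8 at 5 months. These sums include collagens: Col3a1 averaged 172.9 against 77.64 CPM at 2 months and 175.1 against 91.91 at 5 months. Other markers overlapped at 5 months: Des (6.684 against 6.851 CPM), Lrat (52.87 against 50.11) and Reln (73.14 against 72.28). Fitted values below 0 numbered 8 of 10 at 2 months and 9 of 10 at 5 months. No sum without the collagens was compared. Hepatocyte markers had higher sums in PPARγ-KO libraries without overlap at both times, at 61950 to 76740 CPM in wild-type and 78970 to 94500 in PPARγ-KO libraries at 2 months. At 5 months the sums were 66890 to 72240 CPM in wild-type and 81880 to 94530 in PPARγ-KO libraries. Alb was the largest part of these sums. It averaged 44960 CPM in wild-type and 57790 in PPARγ-KO libraries at 2 months, and 36980 and 57100 at 5 months. No sum without Alb was compared, so the direction of the sums is that of Alb and is not shown for the other markers. At 5 months Cyp2e1, Apoa1 and Fgb averaged 4489, 7261 and 3092 CPM in wild-type libraries. In PPARγ-KO libraries they were lower, at 3900, 7139 and 3046 CPM. By edgeR, 0 of 10 markers were called at 2 months. At 5 months 3 were called higher, and 1, Hpx, was called lower (means of 9226 CPM in wild-type and 5332 in PPARγ-KO libraries). Fitted values above 0 numbered 8 of 10 at 2 months and 6 of 10 at 5 months.

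Neutrophil markers were near the floor. Ly6g had 0 or 1 count per library and Mpo 0 to 2, and 2 of the 12 markers, Csf3r and Mmp9, could be tested. Their sum over all 12 ran from 6.61 to 9.69 CPM in wild-type and 4.51 to 6.29 in PPARγ-KO libraries at 2 months, and from 5.99 to 11.8 CPM in wild-type and 3.73 to 4.93 in PPARγ-KO libraries at 5 months, without overlap at either time. Csf3r made up most of this sum, averaging 5.83 CPM in wild-type and 4.2 in PPARγ-KO libraries at 2 months and 6.376 and 2.825 at 5 months. The sum therefore mostly describes this gene, and no sum without it was compared. At 5 months Csf3r fell by 1.16 log2 units (edgeR adjusted p = 0.00333). At 2 months its value was -0.47 (edgeR adjusted p = 0.246), and the genotypes overlapped. The part of these cell markers in the S100 and annexin differences was not tested.

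**Figure D5:**
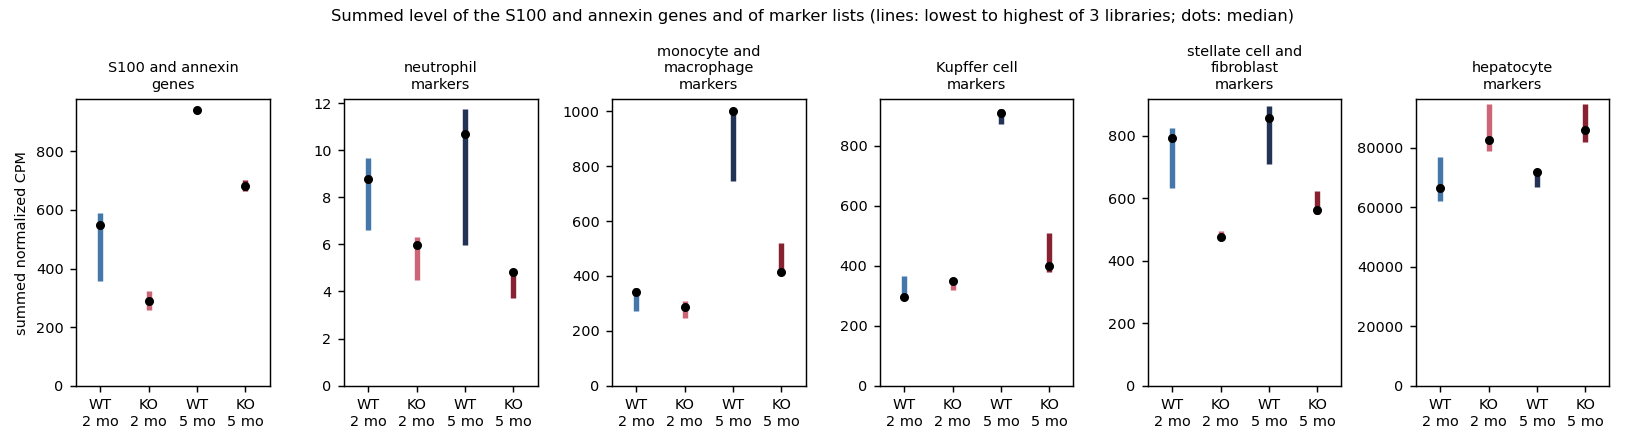
Summed normalized CPM of the S100 and annexin genes and of 5 marker lists in each group, each on its own linear axis from 0; lines run from the lowest to the highest of 3 libraries and dots are medians. The macrophage and Kupffer cell sums separate the genotypes at 5 months and overlap at 2 months. The S100 and annexin, neutrophil (mostly Csf3r) and stellate cell sums, lower in PPARγ-KO, separate them at both times. So does the hepatocyte sum (mostly Alb), which is higher in PPARγ-KO.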

How the data were processed

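RNA from mouse liver was sequenced in 12 libraries, 3 for each of wild-type and PPARγ-KO at 2 and 5 months. The authors deposited raw counts of reads per gene, without normalization. The study's methods name STAR for alignment to mm10, and the submitters' processing notes list HISAT2; the counting program, annotation version and strand setting are not given in the sources used here.

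Normalized CPM were computed with edgeR from TMM-scaled library sizes over all 12 libraries. Each comparison had its own fit of 6 libraries, and the difference of the genotype effect a fit of 12. Genes were filtered with filterByExpr, tested with edgeR's robust quasi-likelihood F-test (two-sided). Benjamini-Hochberg adjustment covered every gene in the fit, and an adjusted p under 0.05 was a call. SE is the log2 fold change divided by the square root of F. Ratios of transcripts were tested by exact permutation. The software was edgeR 4.0.16 and DESeq2 1.42.0 in R 4.3.3. The tests were tried on simulated data. Unchanged genes gave small p-values at the expected rate. The share of false calls after adjustment tended to exceed the threshold, so calls near it are weak. A first criterion for the recovery of changed genes was not met and was replaced. Recovery was lowest for the difference of the genotype effect, so genes not called there may still differ.

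Members and lists were chosen with earlier results of these data known. Named genes are all 10 members, called genes of the other S100, annexin and receptor lists (at most 4 per list and comparison), the 2 most abundant genes of a marker list, the 3 genes most like each member, and Pparg. Some marker genes (Clec4f, Cd68, Trem2, Ccr2, Cx3cr1, Hpx, Ly6g, Mpo, Csf3r and Mmp9) and further called receptors were named after their values were seen. Lists of cholangiocyte, endothelial, T and NK cell, B cell and dendritic cell markers were also counted.

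Deviations from group means over the 5000 most abundant genes correlated between same-numbered libraries of the genotypes at 0.194, 0.272 and 0.141 at 2 months. These passed a limit of 0.1 set for pairing, where differently numbered libraries reached 0.0928. At 5 months same-numbered libraries were at -0.0675, -0.0542 and -0.182, and differently numbered ones reached 0.156. Passing the limit therefore does not establish pairs, and the labels state none. With the replicate number as a block at 2 months, all genes called rose from 519 to 817, and members called stayed at 1. Alternatives were other scalings, filters, DESeq2, the block, all 12 libraries in one fit, the study's thresholds, and each library left out in turn.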

Additional observations from a re-analysis of the deposited data

Results flagged for a closer look

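The genotype effect on Fpr1, a formyl peptide receptor that binds annexin A1, differed between the times by a test of the difference itself. It was 1.61 lower on the log2 scale at 5 than at 2 months (-1.614, SE 0.368, edgeR adjusted p = 0.0387). Fpr1 averaged 3.11 ± 0.311 CPM in wild-type and 3.69 ± 1.25 in PPARγ-KO libraries at 2 months, and 7.03 ± 1.71 against 2.70 ± 0.779 at 5 months (SD, n = 3 each). The difference lay between -1.31 and -1.88 in each alternative run. Scaling by library size left it just short of the threshold (edgeR adjusted p = 0.0539). It also missed the threshold when any 1 of these libraries was dropped (0.0606 to 0.126): replicates 2 and 3 of the wild-type groups at both times, replicate 1 of PPARγ-KO at both times, and replicate 3 of PPARγ-KO at 5 months.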

How the results depend on the processing

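The calls at 5 months for S100a11, Anxa1 and Anxa2 were made under each alternative run, and no fitted value of a member between genotypes at one time, or between times in one genotype, changed sign. At 2 months the count of members called, 1, became 0 with library size alone, 3 with DESeq2, 3 with all 12 libraries in one fit and 5 with the study's thresholds (unadjusted p below 0.05, 1.3-fold change), and ran from 0 to 3 with libraries left out. Without wild-type replicate 1 it was 3, and without any other 1 library 0. At 5 months, 6 members became 7 with library size alone, 8 without a filter on low counts, 4 with all 12 libraries in one fit and 4 to 8 with libraries left out (8 without wild-type replicate 1, 4 without wild-type or PPARγ-KO replicate 3). Over time, 8 became 5 to 9 in wild-type libraries (5 without wild-type replicate 2 or 3 at 5 months) and 7 to 8 in PPARγ-KO libraries. For the difference of the genotype effect, 0 became 1 with DESeq2, 1 without a filter on low counts (Anxa5 in both), 2 with the study's thresholds, and 0 to 2 with libraries left out (2 without wild-type replicate 1 at 2 months). The causes were not tested.

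With a library left out, signs in that difference reversed for S100a10 (0.122 without wild-type replicate 1 and 0.0233 without PPARγ-KO replicate 2 at 2 months, 0.0804 without wild-type replicate 1 at 5 months; range -0.163 to 0.122), S100a11 (-0.016 without wild-type replicate 2 at 2 months; range to 0.543), Anxa3 (-0.0906 without wild-type replicate 2 at 2 months, -0.178 without wild-type replicate 1 and -0.0855 without PPARγ-KO replicate 2 at 5 months; range -0.178 to 0.16), S100a8 (-0.0258 without wild-type replicate 3 at 2 months, -0.0167 without wild-type replicate 1 at 5 months; range to 0.618) and S100a9 (0.0319 without PPARγ-KO replicate 3 at 5 months; range from -0.674).

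The replicate block changed 2 other calls, both in comparisons over time. S100a11 passed in wild-type libraries (edgeR adjusted p = 0.0211, 9 members called) and S100a9 was lost in PPARγ-KO libraries (0.107, 7 called). Same-numbered libraries of the 2 times correlated unevenly, at 0.216, 0.176 and 0.0318 in wild-type and -0.00638, 0.295 and -0.0095 in PPARγ-KO libraries. Whether the numbers pair libraries over time is not stated. Between genotypes the block left 1 member called at 2 months and 6 at 5 months, and for the difference 0. All genes called at 2 months, 519, were 988 with DESeq2, 1562 without a filter, 817 with the block, 1153 in one fit, 1608 with the unadjusted threshold and 117 to 1577 with libraries left out. At 5 months 2602 became 1593 to 3078 with libraries left out. For the difference 238 became 565, 793, 1563 and 83 to 567 (DESeq2, no filter, unadjusted threshold, libraries left out). Library size alone shifted the split to 171 higher and 349 lower at 2 months, 889 and 1894 at 5 months, 2745 and 3872 over time in wild-type and 2741 and 3725 in PPARγ-KO libraries. S100a4 and S100a8 are limited by counts of 0 to 50 per library.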

Other observations

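Markers of other liver cells were counted in the same fits. Of 7 T and NK cell markers, 6 were tested with time in wild-type and 3 in PPARγ-KO libraries. In wild-type libraries 5 rose, among them Ccl5 by 2.31 and Trbc2 by 2.18 log2 units (edgeR adjusted p = 4.43e-05 and 2.15e-04). In PPARγ-KO libraries edgeR called 1, Trbc2 (2.36, edgeR adjusted p = 0.00363). All 3 fitted values there lay above 0, with a median of 2.137 (2.535 in wild-type), and DESeq2 called 3. Between genotypes at 5 months Trbc2 fell by 1.16 (edgeR adjusted p = 0.0245). Among 6 B cell markers, Ms4a1 and Cd79b fell at 5 months by 2.01 and 1.10 (edgeR adjusted p = 0.00791 and 0.0192) while Ighm rose by 1.18 (0.00923). Of 5 dendritic cell markers, Itgax fell at 2 months by 1.21 (edgeR adjusted p = 0.018) and at 5 months by 0.65 (0.0181). Of 6 endothelial markers, Clec4g and Pecam1 fell at 5 months by 0.53 and 0.24 (edgeR adjusted p = 0.00144 and 0.0374), and of 6 cholangiocyte markers Sox9 rose by 0.63 (0.0102). The endothelial list showed no shared direction at 5 months: 3 fitted values lay above 0 and 3 below, with a median of -0.076, and DESeq2 called 1. The single genes given here were named after their values were seen.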
